A study of Mus musculus with 15 samples.

Results

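The regions described here were accessible in macrophages of the Ikzf KO genotype at every time studied and appeared in none of the deposited lists of control macrophages. The cells were macrophages grown from bone marrow of C57BL/6J mice, studied by DNase-seq, and the authors listed the accessible stretches (hotspots) of each library. Each KO list was restricted to chromosomes 1 to 19 and cut to its 52400 hotspots of highest peak tag density, and hotspots sharing at least 1 bp over the 6 cut lists were merged. Members were the merged regions present in all 6 cut KO lists with no overlap to any hotspot of the 9 deposited control lists. They numbered 1259, out of 36306 regions in all 6 cut KO lists and 308386 regions merged over all 15 lists. Members were thus chosen on measured densities of KO against controls. What follows on that contrast is a description, with no test.

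Accessible chromatin marks promoters, enhancers and insulators, where bound proteins displace nucleosomes and leave the DNA open to DNase I. Ikaros, the zinc finger protein that the series title names, is encoded by Ikzf1. It is known in lymphocytes both as a repressor that recruits chromatin remodelling and deacetylase complexes and as a factor that helps genes to be expressed. Lipopolysaccharide (LPS) of Gram-negative bacteria activates macrophages through Toll-like receptor 4, and NF-kB, AP-1 and interferon regulatory factors then bind enhancers that were open before and others that open during the response.

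The 15 libraries fell into 9 groups, with wild type (WT), Littermate control and Ikzf KO cells each exposed to LPS at 10 ng/ml over 0, 3 or 8 h. There were 2 WT, 1 littermate and 2 KO libraries per time. WT replicate 2 was digested with 100 U of DNase and all the others with 80 U, per the sample titles. The labels name no allele, age or sex, and leave unsaid whether replicates are different animals or cultures. The p-values therefore rest on the spread of these libraries alone, which may be technical. No gene annotation of the build of the lists (mm9) was used here, so neither the targeted gene nor macrophage markers were checked, and regions are given by position in mm9 as deposited.

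The lists differed in how far down they reached. They held 111553 to 132279 hotspots in KO, 52400 to 114427 in the littermate and 15659 to 51834 in WT, and stopped at Z-scores of 3.40 to 3.66 in KO, 3.65 to 4.54 in the littermate and 7.98 to 10.6 in WT. Peak densities were whole multiples of 1 step per library, within 0.05 of a step. If that step stands for 1 tag at a common total, which the sources do not state, relative depth was 0.741 to 1 in KO, 0.525 to 0.712 in the littermate and 0.596 to 0.947 in WT. The littermate 8 h list was longer than both KO 0 h lists, and the other 8 control lists were shorter than every KO list. List length, depth and genotype cannot be told apart in the choice of members. Absence from a list means below the authors' threshold in that library and not absence of signal.

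Most regions in all 6 cut KO lists were shared with controls. Of the 36306 regions, 9998 (27.5%) overlapped all 9 control lists, 2229 (6.14%) overlapped exactly 1, and the 1259 members (3.47%) overlapped none. The littermate list at 8 h covered 95.8% of the 36306 regions, the WT lists at 8 h 80.2% and 84.7%, and the WT lists at 0 h and 3 h 35.7% to 47.4%. The littermate 8 h list was the only control list for 2004 of the 2229 regions found in a single one, and without it 3263 regions would be members. Without all 3 littermate lists there would be 4649, and without the 8 h control lists 6663. Leaving out all 6 WT lists gave 1278. Among the KO lists, leaving out both of 0 h gave 2204.

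**Figure D1:**
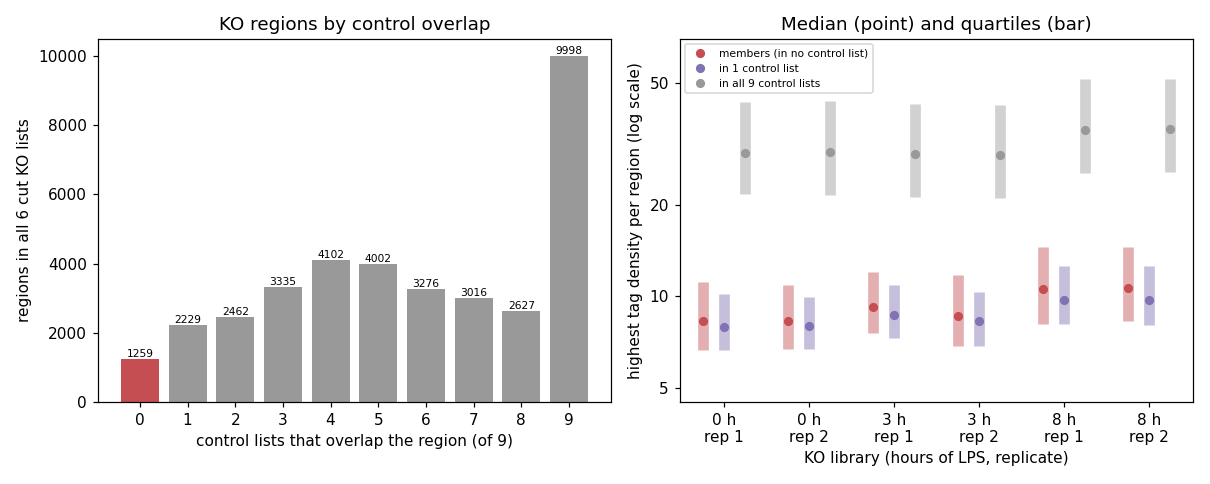
Left, number of regions in all 6 cut KO lists by how many of the 9 control lists overlap them, with the 1259 members in red. Right, highest tag density per region on a log scale in each KO library (hours of LPS and replicate) for members, regions in 1 control list and regions in all 9. Points are medians and bars span the quartiles. Members lie close to the regions in 1 control list and below those in all 9.

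Members were regions of modest density within KO. The median of their highest tag density was 8.27 and 8.32 in the replicates before LPS, 9.23 and 8.61 at 3 h and then 10.6 and 10.7 at 8 h. Over regions in all 9 control lists the same medians lay between 29.0 and 35.3, and over regions in 1 control list between 7.96 and 9.77. So members lay near the regions found in a single control list and well below those in all 9. In steps of density, the median member held 26 in both 0 h libraries, 33 and 30 in those of 3 h and 38 and 45 in those of 8 h, and the lowest value of any member was 15. Median Z-scores of members ran from 11.7 in a 0 h library to 18.1 in an 8 h library.

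The lowest density of a member over its 6 libraries had a median of 6.68. The density at the cut was 4.80 to 5.93 in the KO lists and the median hotspot of the littermate lists 4.14 to 5.00, so the cut itself placed nearly all members above those medians. Against the WT 8 h lists, whose median hotspots were 10.4 and 10.8, 149 and 134 members (11.8% and 10.6%) had all 6 values above. Over all 36306 regions the lowest density had a median of 10.4, against the 6.68 of members. These densities come from lists whose scaling between libraries is not stated. A small part of the members was strong, with 10 members among the best 10000 hotspots of every KO list and 60 among the best 20000, or 0.794% and 4.77% of them. Of all 36306 regions, 17.7% and 37.3% met those ranks.

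The strongest member by mean rank was chr12:112624315-112625473. Its density was 39.8 and 33.9 before LPS, 36.9 and 37.3 at 3 h and then 61.1 and 69.7 at 8 h. Every value of this region exceeded the median hotspot of each control list, and the nearest control hotspot lay 7427 bp away. The next member, chr8:108117286-108118405, had 33.7 and 35.9 before LPS, 31.9 and 33.3 at 3 h and then 52.7 and 57.4 at 8 h. The region chr19:47354926-47357609 had 39.5 and 38.4 before LPS, 26.3 and 32.4 at 3 h and then 47.4 and 47.9 at 8 h, and chr5:24381791-24383094 had 33.4 and 33.6, then 28.0 and 29.3, then 51.1 and 51.7. In these 4 regions both 8 h libraries stood above the other 4 libraries, as deposited. The 0 h and 3 h libraries overlapped in the chromosome 12 region, and in the other 3 both 3 h libraries lay below both 0 h libraries. How many of all 36306 regions showed such orders was not counted. Their median log2 difference at 8 h against 0 h was 0.26 without centring. At chr2:91347537-91349324 the values were 28.0 and 31.7 before LPS, 40.6 and 37.9 at 3 h and then 38.0 and 38.9 at 8 h, so that both stimulated times lay above 0 h. The region chr9:58552771-58554847 was higher at each later time, with 24.5 and 21.4, then 31.1 and 34.7, then 62.2 and 62.1.

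The remaining 4 of the 10 best-ranked members differed in their course. At chr7:133806693-133807850 densities were 29.9 and 27.5 before LPS, 26.9 and 24.7 at 3 h and then 44.6 and 42.0 at 8 h. At chr12:113813738-113815823 they were highest at 3 h, with 42.0 and 36.5, against 25.8 and 23.4 at 0 h and 36.3 and 29.2 at 8 h. This was the top member nearest to a control hotspot, at 675 bp. The regions chr11:57939555-57940874 and chr11:116383785-116386324 stayed within 25.2 to 37.1 and 22.3 to 35.6 in all 6 libraries.

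**Figure D2:**
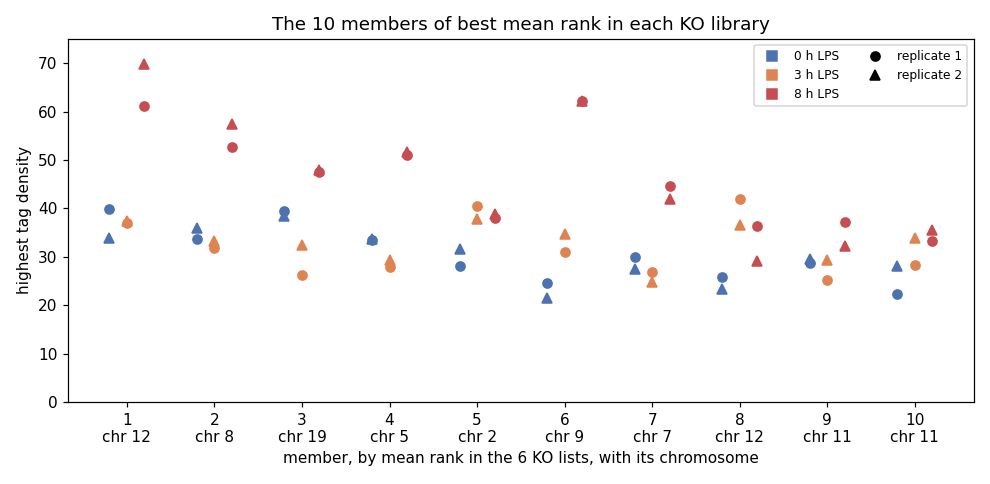
Highest tag density (linear axis from 0) of the 10 members of best mean rank in each of the 6 KO libraries, coloured by hours of LPS, with circles for replicate 1 and triangles for replicate 2. The 8 h values of members 1 to 4, 6 and 7 and of member 9 lie above their 0 h and 3 h values. Values are as deposited, without centring, and this order was not counted over all regions. In member 10 the 3 h and 8 h values overlap and lie above those of 0 h.

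At the boundary of the rule, values were close on both sides. The 3 members whose worst rank came nearest to 52400 were chr16:32214566-32215780 (rank 52399, density 5.93 in KO 8 h replicate 2), chr15:79900571-79901520 (rank 52395) and chr5:31247554-31248507 (rank 52385), the last 2 with 4.80 in KO 0 h replicate 2. Just outside were chr11:20162805-20163871 (rank 52418, 4.80 in KO 0 h replicate 2), chr12:92278438-92279547 (rank 52429, 5.09 in KO 0 h replicate 1) and chr6:88073135-88074318 (rank 52437, 5.32 in KO 3 h replicate 1). In all, 696 regions without control overlap were in 5 of the 6 cut lists. Of these, 537 were in the list they missed at a lower rank, and 159 were not in it at all. KO 0 h replicates 1 and 2 were the list missed for 152 and 167 regions, and the other 4 lists for 81 to 111 each.

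The rule asked for presence at all times alike and contrasted no times, but it used the same densities that are compared here. The cut fell at densities of 5.09 and 4.80 in the 0 h libraries, below the 5.86 and 5.93 of the 8 h libraries. Without the 8 h control lists 6663 regions would be members, in place of 1259. The choice of members was thus not neutral in time, and its part in the calls below was not tested. Log2 densities were centred on each library's median over the 36306 regions and compared with limma over all of them, with Benjamini-Hochberg adjustment and a threshold of 0.05. At 8 h against 0 h, 208 members (16.5%) were higher and 182 (14.5%) lower, and 869 did not pass. Of all regions fitted, 32% were called, 14.2% higher and 17.7% lower. The median log2 difference was -0.02 over members and -0.09 over all regions. At 3 h against 0 h, 193 members (15.3%) were higher and 137 (10.9%) lower, beside 12.6% and 13.7% of all regions (26.3% in either direction), and the medians were 0.02 and -0.04. At 8 h against 3 h, 52 members were higher and 62 lower (4.13% and 4.92%), beside 3.99% and 3.69% of all regions (7.68% in either direction). The members' shares called in either direction were thus near those of all regions, and the members moved in both directions. Calls were higher for 53.3%, 58.5% and 45.6% of the members called, beside 44.6%, 47.8% and 52.0% of all regions called. Regions in all 9 control lists were higher for 10.5% and lower for 25.5% at 8 h against 0 h. Their shares were 7.97% and 17.4% at 3 h against 0 h, and 4.27% and 4.52% at 8 h against 3 h. Regions in 1 control list, which lay near the members in density, were called less often than members in each comparison. Of them, 11.98% were higher and 11.84% lower at 8 h against 0 h. The shares were 11.62% and 7.22% for 3 h against 0 h, and 2.74% and 3.05% for 8 h against 3 h. The nearness to all regions did not hold when the fit was limited to the 18153 regions of higher mean density, which include 167 members. There 53.3% of the members and 40.2% of the regions were called at 8 h against 0 h, 53.9% and 31.6% at 3 h against 0 h, and 20.4% and 11.6% at 8 h against 3 h. That limit was set on the same densities that are compared, so a region could pass it through a single high time. Its part in these shares was not tested. Whether the shares differ was not tested either.

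The balance of directions depended on the centring. Without it, 426 members were called higher and 55 lower at 8 h against 0 h, and 243 higher and 15 lower at 8 h against 3 h. The split at 3 h against 0 h was 212 and 110. Calls were thus higher for 88.6%, 94.2% and 65.8% of the members called, beside 89.1%, 96.4% and 56.4% of all regions called. The median log2 difference of all regions at 8 h against 0 h was then 0.26, and that of the members 0.32, so that members were higher by about as much as regions at large. Relative depth, on the reading above, was 0.745 and 0.741 in the 0 h libraries and 0.850 and 1 at 8 h, and its part in these counts was not tested. The 3 comparisons share libraries and are not independent of each other. Without KO 8 h replicate 2, 231 members were called at 8 h against 0 h in place of 390, which is 18.3% of them beside 17.8% of all regions. The 114 members called at 8 h against 3 h dropped to 30 without that library, to 37 without KO 8 h replicate 1 and to 43 without KO 3 h replicate 1. These were 2.38%, 2.94% and 3.42% of the members, beside 1.99%, 2.52% and 3.76% of all regions, so the drop was shared by regions at large.

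**Figure D3:**
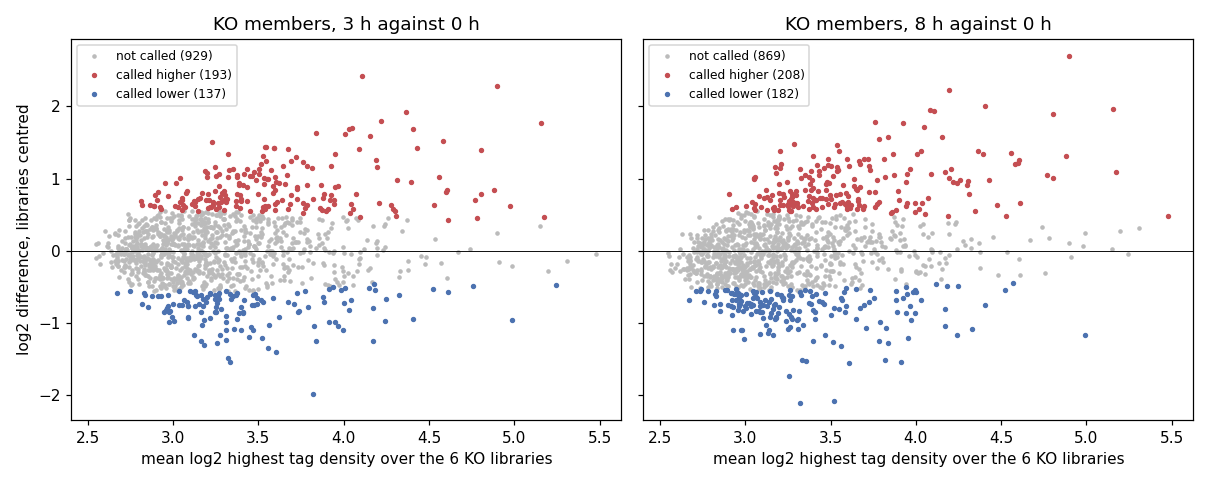
Log2 difference between times in KO (libraries centred on their median over all regions fitted) against the mean log2 highest tag density of each member, for 3 h (left) and 8 h (right) against 0 h. Red and blue points passed the threshold as higher or lower and grey points did not. The 208 higher and 182 lower members at 8 h lie on both sides of 0 over the range of density.

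Members called higher at 8 h had a median density of 7.42 at 0 h, 12.8 at 3 h and 17.5 at 8 h. Members not called had 7.98, 8.49 and 9.95. Of the 208 called higher, 71 differed by more than 1 on the log2 scale, a count that was not taken over all regions. The largest difference was at chr8:106644626-106646408, with 7.96 and 9.28 before LPS, 43.9 and 43.1 at 3 h and then 71.4 and 69.7 at 8 h (log2 difference at 8 h 2.70 ± 0.15 SE, limma adjusted p = 2.36e-18). Its nearest control hotspot lay 2468 bp away. At chr8:32410947-32413068 the densities were 7.64 and 7.68, then 16.0 and 19.8, then 42.4 and 48.4 (2.22 ± 0.18, limma adjusted p = 1.94e-13). At chr1:138594535-138596178 they were 10.2 and 6.72, then 24.6 and 30.7, then 43.3 and 40.8 (2.00 ± 0.18, limma adjusted p = 4.21e-12). As deposited, all 3 regions lay higher in each 3 h library than in either 0 h library, and higher again in each 8 h library. After centring, the step from 3 h to 8 h passed at chr8:32410947-32413068 (1.06 ± 0.18, limma adjusted p = 1.11e-04) but not at chr8:106644626-106646408 (0.41 ± 0.15, limma adjusted p = 0.0761) or chr1:138594535-138596178 (0.32 ± 0.18, limma adjusted p = 0.288). The region chr9:71250998-71254072 had 14.0 and 13.4 before LPS, 51.2 and 46.2 at 3 h and then 73.9 and 62.6 at 8 h (1.97 ± 0.14, limma adjusted p = 5.02e-15), and its 15283 bp to the nearest control hotspot was the longest of the 5.

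A late pattern was seen at chr2:102663046-102664268. Its densities were 8.59 and 9.28 before LPS, 13.4 and 11.5 at 3 h and then 39.6 and 48.2 at 8 h. The 8 h difference from 0 h was 1.95 ± 0.18 (limma adjusted p = 1.74e-11) and that from 3 h passed as well (limma adjusted p = 3.30e-07), whereas the 3 h difference of 0.42 ± 0.18 did not pass (limma adjusted p = 0.0815).

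Members called lower at 8 h had a median density of 11.8 at 0 h, 8.37 at 3 h and 8.55 at 8 h. Of the 182, 34 differed by more than 1 on the log2 scale, again with no count over all regions. At chr10:79399422-79400500 the densities were 20.4 and 21.4 before LPS, 8.40 and 7.18 at 3 h and then 6.42 and 5.93 at 8 h (log2 difference at 8 h -2.10 ± 0.21 SE, limma adjusted p = 8.99e-11). At chr19:25197150-25198553 they were 20.4 and 24.6, then 9.79 and 10.3, then 6.98 and 6.40 (-2.09 ± 0.21, limma adjusted p = 8.36e-11). Both 0 h libraries were the highest of the 6 in each of these regions. The region chr8:74791992-74792972 had 20.1 and 15.4, then 7.84 and 7.18, then 6.70 and 6.64 (-1.74 ± 0.21, limma adjusted p = 1.50e-08). The region chr5:121028316-121029936 had 22.3 and 21.8, then 11.8 and 6.32, then 9.77 and 9.25 (-1.55 ± 0.22, limma adjusted p = 3.88e-07), and here the 3 h replicates stood far apart. At chr14:47323554-47324787 densities were 26.7 and 22.7, then 12.03 and 13.8, then 12.8 and 9.01 (-1.54 ± 0.20, limma adjusted p = 5.12e-08). The rule kept members only while they stayed among the 52400 hotspots, so a region that fell further left the set, and a member called lower had to start well above the cut.

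**Figure D4:**
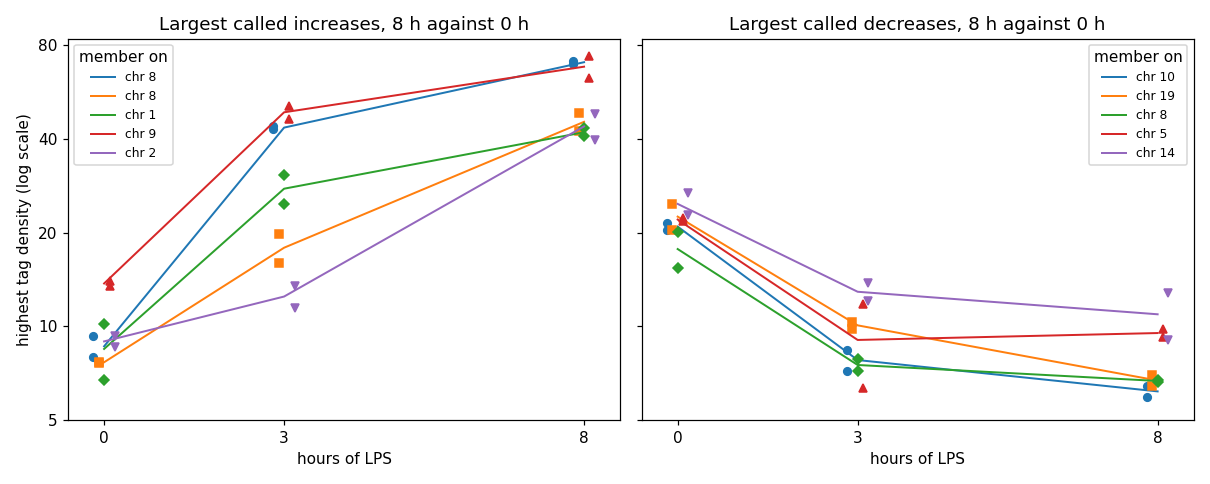
Highest tag density (log scale) against hours of LPS for the 5 members with the largest called increase (left) and decrease (right) at 8 h against 0 h, each point 1 KO library and each line the mean of 2. On the left the chromosome 2 member reaches 13.4 and 11.5 at 3 h and the others are higher by then. On the right all 5 are lower at 3 h already.

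At 3 h the largest increase was at chr16:31597332-31599916. Its densities were 6.05 and 5.44 before LPS, 35.0 and 29.3 at 3 h and then 26.8 and 28.7 at 8 h (log2 difference at 3 h 2.43 ± 0.18 SE, limma adjusted p = 3.69e-14). At chr4:129950441-129953322 they were 8.91 and 8.64, then 38.3 and 31.0, then 29.9 and 28.0 (1.92 ± 0.17, limma adjusted p = 3.54e-12), and at chr18:60896011-60897463 11.5 and 7.04, then 29.7 and 35.6, then 25.4 and 19.2 (1.80 ± 0.19, limma adjusted p = 8.42e-10). In all 3 regions both 3 h libraries stood above both 8 h libraries as deposited. The other two of the 5 largest increases at 3 h were chr8:106644626-106646408 (2.29 ± 0.15) and chr9:71250998-71254072 (1.77 ± 0.14), described above. Members called higher at 3 h had a median density of 7.02 at 0 h, 14.2 at 3 h and 15.5 at 8 h.

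The largest decrease at 3 h was at chr17:25200909-25202059, with 29.3 and 28.5 before LPS, 5.88 and 9.76 at 3 h and then 11.4 and 14.5 at 8 h (log2 difference at 3 h -1.98 ± 0.21 SE, limma adjusted p = 7.24e-10). Both 8 h libraries of this region lay between the 3 h and the 0 h libraries as deposited. At chr2:179850105-179851361 the densities were 20.4 and 17.0, then 6.44 and 6.89, then 6.70 and 10.2 (-1.53 ± 0.22, limma adjusted p = 5.43e-07), and at chr17:26720763-26722085 21.3 and 18.6, then 9.51 and 6.89, then 10.6 and 9.73 (-1.35 ± 0.21, limma adjusted p = 2.36e-06). The chromosome 10 and chromosome 5 regions named for 8 h completed the 5, at -1.48 ± 0.21 and -1.41 ± 0.22. The calls of all regions named for 3 h or 8 h against 0 h in these 4 groups held under the 11 alternatives run on them.

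Among the 10 best-ranked members, 2 were called higher at 8 h against 0 h and none lower, beside 14.2% and 17.7% of all regions. The 2 were chr9:58552771-58554847 (1.10 ± 0.14 SE, limma adjusted p = 3.29e-08) and chr12:112624315-112625473 (0.49 ± 0.13, limma adjusted p = 0.00366). The second call did not hold without KO 0 h replicate 2 (limma adjusted p = 0.0633) or without KO 8 h replicate 2 (limma adjusted p = 0.114). For the chromosome 8, 19 and 5 regions, whose deposited 8 h densities were also the highest, the centred 8 h differences were 0.32, -0.05 and 0.27 and did not pass (limma adjusted p = 0.0619, 0.816 and 0.119). At 3 h, chr12:113813738-113815823 was higher (0.62 ± 0.15, limma adjusted p = 0.00119), chr9:58552771-58554847 was higher (0.47 ± 0.14, limma adjusted p = 0.00972) and chr19:47354926-47357609 was lower (-0.47 ± 0.14, limma adjusted p = 0.00962). The last 2 calls were lost without 1 of the 3 h libraries, the chromosome 9 one without KO 3 h replicate 2 (limma adjusted p = 0.12) and the chromosome 19 one without KO 3 h replicate 1 (limma adjusted p = 0.188). The chromosome 9 call was lost also without KO 0 h replicate 2 (limma adjusted p = 0.0876) and without the variance trend (limma adjusted p = 0.0563). The chromosome 19 call was lost also without the trend (limma adjusted p = 0.0628) and on the highest mean density of a hotspot, where the difference was -0.21 (limma adjusted p = 0.426).

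At 8 h against 3 h, 5 of the 10 were called higher and 1 lower, beside 3.99% and 3.69% of all regions. SEs of the 10 ran from 0.13 to 0.15, against a median of 0.21 over members. Regions as dense as these 10 were not compared. The 5 called higher were chr9:58552771-58554847 (0.63 ± 0.14 SE, limma adjusted p = 0.00274), chr5:24381791-24383094 (0.55 ± 0.14), chr12:112624315-112625473 (0.52 ± 0.13), chr8:108117286-108118405 (0.47 ± 0.13) and chr7:133806693-133807850 (0.46 ± 0.14, limma adjusted p = 0.0361). The lower one was chr12:113813738-113815823 (-0.56 ± 0.15, limma adjusted p = 0.0131). All 6 calls were lost without KO 3 h replicate 1 (limma adjusted p = 0.0535 to 0.138) and without KO 8 h replicate 2 (limma adjusted p = 0.0537 to 0.329).

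Members were spread over all 19 chromosomes. They made up 2.45% of the regions in all 6 cut KO lists on chromosome 13 and 4.30% on chromosome 11, which held 125 members, the most of any chromosome. Of 496 bins of 5 Mb that held such regions, 364 held a member. Neighbouring members on a chromosome were a median of 552368 bp apart. Within 10 kb of another lay 158 members (12.5%), in 75 groups, and the largest group held 6. The spacing of other regions was not summarised, so whether members lie closer together was not tested.

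That group of 6 was also the 100 kb window with most members, on chromosome 11. It ran from 46605879 to 46634219, a span of 28341 bp, and no other region of the window was in all 6 cut KO lists. Among the 6, chr11:46610902-46613122 had 10.8 and 7.68 before LPS, 10.4 and 12.1 at 3 h and then 17.6 and 17.1 at 8 h. The region of highest mean density, chr11:46623534-46624823, had 10.5 and 12.5, then 13.7 and 9.48, then 15.3 and 14.5. The region of lowest mean density, chr11:46625539-46626767, stayed between 5.17 and 9.49. In all 3 regions both 8 h libraries stood above the other 4 as deposited, and the 0 h and 3 h libraries overlapped. How many of all regions did the same was not counted. Their median log2 difference at 8 h against 0 h was 0.26 without centring. After centring, the differences at chr11:46623534-46624823 and chr11:46625539-46626767 were 0.04 and 0.12 and did not pass (limma adjusted p = 0.912 and 0.707). Within this span the KO lists held 6 to 9 hotspots each. Of the 9 control lists only the littermate list at 3 h held any, 2 short hotspots of density 3.61 and 4.06 that lay between members. With limma, 14.2% of all regions were called higher and 17.7% lower at 8 h against 0 h. Of the 6 members of this window, which was chosen for its number of members, 2 were higher. They were chr11:46610902-46613122 (0.58 ± 0.21 SE, limma adjusted p = 0.0288) and chr11:46617486-46618699 (0.63 ± 0.21, limma adjusted p = 0.0194). The member chr11:46632780-46634219 was lower (-0.62 ± 0.21, limma adjusted p = 0.0202). Each of these 3 calls was lost without KO 0 h replicate 2 (limma adjusted p = 0.309, 0.206 and 0.0902), and each was lost also when either 8 h library was left out. The last was lost without centring as well (limma adjusted p = 0.324).

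**Figure D5:**
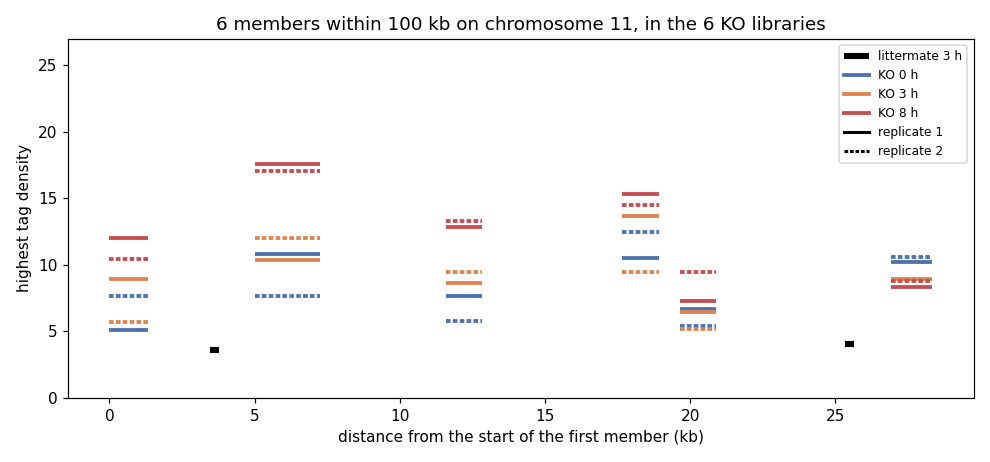
The 6 members on chromosome 11 drawn at their distance (kb) from the start of the first, with a line at their highest tag density in each KO library (colour for hours of LPS, dashes for replicate 2). The 2 black marks are hotspots of the littermate 3 h list, the only control hotspots in the span, drawn at their own density of 3.61 and 4.06.

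Other dense stretches held a smaller share of members. The 1 Mb window with most members, 11 of 63 regions (17.5%), began at 116361940 on chromosome 11 and held the tenth-ranked member. The 5 Mb window with most began at 116155457 on the same chromosome and held 26 of 276 (9.42%). The longest member, chr11:116607389-116610974 (3586 bp), lay in the same stretch and was weak, at 5.73 to 8.78 in the 6 libraries.

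Members were short. Their median length was 1077 bp (quartiles 924 and 1345), against 1500 bp for all regions in the 6 cut KO lists, 2276 bp for regions in all 9 control lists and 1004 bp for regions in 1 control list. In each of the 6 lists 1212 members (96.3%) consisted of a single hotspot, against 82.2% of the regions in all 9 control lists and 96.0% of those in 1 control list. The mean density of a member was a median of 0.377 times its highest density, against 0.307 in regions of all 9 control lists and 0.378 in regions of 1 control list.

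The nearest control hotspot lay at a median distance of 3490 bp from a member (quartiles 1544 and 7484.5). It lay within 500 bp for 80 members (6.35%) and within 1000 bp for 204 (16.2%), and 217 members (17.2%) had none within 10000 bp. The nearest control hotspot belonged to the littermate 8 h list for 951 members, and that list alone held 114427 hotspots. Distances from positions outside the members were not summarised, so whether members lie nearer than other positions was not tested. The members farthest from any control hotspot were chr1:135874751-135876069 (66128 bp), chr5:115891472-115892093 (41824 bp) and chr7:91696282-91697927 (41754 bp). The chromosome 1 region was the strongest of these, with 18.8 and 16.6 before LPS, 14.3 and 14.6 at 3 h and then 20.6 and 15.7 at 8 h, and its time differences did not pass. The nearest region present in all KO and control lists lay at a median of 27837 bp. That median was 26681 bp for regions in 1 control list, and 13488 bp for all 36306 regions, which include those in all lists.

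Replicates agreed less for members than for strong shared regions. The SD of the log2 ratio of the replicates was 0.32, 0.30 and 0.28 at 0, 3 and 8 h over members, 0.33, 0.30 and 0.28 over regions in 1 control list, and 0.22, 0.24 and 0.19 over regions in all 9. Pearson's r of log2 density between replicates was 0.82, 0.85 and 0.90 across the 1259 members, as a description across regions that share libraries. Within a member, the highest library exceeded the lowest by a median of 0.81 on the log2 scale, as deposited and without centring. That median was 0.72 over all 36306 regions, 0.73 over regions in 1 control list and 0.59 over regions in all 9. At least 2-fold was spanned by 392 members (31.1%), a count that was not taken over other regions.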

How the data were processed

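Size-selected fragments from DNase I digestion of nuclei were sequenced from a single end, per the labels' protocols. For each library the authors deposited a list of hotspots. The submitters' processing notes name the build mm9 and CASAVA, with aligner, hotspot caller and cutoff not given in the sources used here. A hotspot carries, per the file headers, its highest and mean tag density (signal), a Z-score and a p-value; in the deposited lists that p-value is the two-sided normal tail of the score. The deposited lists give no counts, so depth is known only as far as density steps show it.

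Lists were ranked by highest density (ties by mean density, then position), start and end taken as inclusive. The value of a region in a library is the highest density of its hotspots there. KO times were compared on log2 density with limma 3.58.1 in R 4.3.3 (eBayes with a variance trend, no pseudocount, all 6 KO libraries in 1 fit, no replicate term), adjusted over 36306 regions; the script was tested on simulated data. Sequence, motifs and genes were not analysed here, because the reference tables at hand are of another build. Regions named are the 10 of best mean rank, the 5 largest called differences per direction at 8 h and 3 h, the 3 on either side of the cut, the longest, the densest 100 kb window and the 3 farthest from controls. Members and lists were chosen with earlier results of these data known. Alternatives changed the ranking measure, the cut, the overlap, the libraries, the centring, the measure and the model.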

Additional observations from a re-analysis of the deposited data

How the results depend on the processing

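The number of members (1259) followed the length of the lists and the 8 h controls. It was 137 with KO lists cut to 26200 hotspots and 5573 with KO lists as deposited, 4649 without the littermate lists, 6663 without the 8 h control lists and, chosen after seeing the data, 2204 without the KO 0 h lists. Ranking by Z-score gave 1150, of which 797 of the main members were held. Leaving out single libraries, added after seeing the data too, gave 1259 to 3263, the highest without the littermate 8 h list; without KO replicate 1 or 2 it was 1733 and 1761.

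Members called were 390 at 8 h against 0 h (231 to 403 with a library left out), 330 at 3 h against 0 h (245 to 311) and 114 at 8 h against 3 h (30 to 137); a lone library was assumed to vary like the others. With all libraries these were 31.0%, 26.2% and 9.05% of the members, beside 32.0%, 26.3% and 7.68% of all regions. Without centring the count at 8 h against 3 h was 258, or 20.5% of members beside 26.0% of all regions. With regions taken from the KO lists as deposited, the 8 h against 3 h split was 53 higher and 36 lower, in place of 52 and 62. Calls were then higher for 59.6% of the members called and 61.1% of all regions called. In the main fit these shares were 45.6% and 52.0%. With the lists as deposited they were 61.8% and 48.1% at 8 h against 0 h, and 60.2% and 48.6% at 3 h against 0 h. Among regions above the median level, which hold 167 members, the counts were 89, 90 and 34. These were 53.3%, 53.9% and 20.4% of the members fitted, beside 40.2%, 31.6% and 11.6% of the regions fitted. The shares of members and of regions were all larger than in the whole set. That level was taken from the same densities that are compared. With the replicate number as a replicate block 387, 325 and 107 members were called. These were 30.7%, 25.8% and 8.50% of the members, beside 31.6%, 26.0% and 7.26% of all regions. Deviations of same-numbered libraries correlated at -0.01, -0.02 and 0.09, so the numbers were not taken as pairs. Of 58 called differences of 40 named members, 37 held under all 11 alternatives and none reversed.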

Other observations

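The member of highest mean Z-score was not among the 10 of best mean rank by density. The region chr18:43135305-43136009 (705 bp) had Z-scores of 71.2 to 109 over the 6 KO libraries and densities of 22.9 and 27.2 before LPS, 26.9 and 19.8 at 3 h and then 24.3 and 22.3 at 8 h, with a best rank of 6588 by density. Its nearest control hotspot lay 8234 bp away. The next by mean Z-score, and higher than it in both 8 h libraries, was chr8:106644626-106646408, the member with the largest increase at 8 h, whose Z-scores were 13.1 and 12.7 before LPS, 71.6 and 72.6 at 3 h and then 112 and 128 at 8 h. These regions were singled out after their values were seen.

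On chromosome X, which was left out of the members, the same rule found 12 regions among 575 in all 6 cut KO lists (2.09%) when the lists were cut over chromosomes 1 to 19 and X together. Regions found in littermate lists and in no WT list numbered 3390 of the 36306, against 19 in WT lists and in no littermate list.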
